A study of Mus musculus with 6 samples.

Results

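The genes described here are 39 redox defence genes of the mouse, listed by name: the enzymes that make, recycle and use glutathione, the peroxiredoxin, thioredoxin and superoxide dismutase systems, and the pair of proteins NRF2 (gene Nfe2l2) and Keap1 with the NRF2 targets Nqo1 and Hmox1. A gene was taken as measured where the platform annotation held at least 1 probe set naming it alone, which gave 71 probe sets for 36 of the 39 genes, out of 18193 genes measured in the series. Each gene is represented by its brightest probe set. Prdx1 is left out because its probe sets also name Gm21399, and Prdx5 and Prdx6 are not analysed here. The samples were whole oviducts of outbred MF1 mice, taken at embryonic day 2.5 from females mated with wild-type males. There were 3 samples from Wt1 +/+ females and 3 from females with 1 Wt1 allele knocked out (Wt1 ko/+), with 1 array per sample. The labels name no other allele, no age and no treatment, and do not say whether samples came from single animals, so a p-value here speaks of variation among 6 arrays that may in part be technical.

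Glutathione is a tripeptide thiol built by glutamate-cysteine ligase (catalytic subunit Gclc, modifier subunit Gclm) and glutathione synthetase (Gss), and kept reduced by glutathione reductase (Gsr). Superoxide dismutases turn superoxide into hydrogen peroxide, which glutathione peroxidases and peroxiredoxins then reduce, while glutathione transferases couple glutathione to reactive electrophiles. NRF2 is the transcription factor that drives many of these genes through antioxidant response elements, and Keap1 marks it for degradation in unstressed cells. In the oviduct, gametes and cleaving embryos are exposed to the fluid that the epithelium makes, and antioxidants of that fluid are studied for their effect on embryo quality.

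Promoter windows of 300 bases (250 before and 50 after the start site, RefSeq, GRCm38.p6) were matched for 32 of the 39 genes. They were searched on both strands for TGACNNNGC, the core of the antioxidant response element through which NRF2 acts. It was found in 9 of these 32 genes (28.1%), and in 14.0% of the 27025 genes with such windows. The 8 measured genes that hold it are shown with 10 bases on each side, read along the strand that carries the match, with the match in capitals.
Gclm: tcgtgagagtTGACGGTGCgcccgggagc
Srxn1: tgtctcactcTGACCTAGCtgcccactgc
Txnrd1: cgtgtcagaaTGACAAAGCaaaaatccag
Gsta3: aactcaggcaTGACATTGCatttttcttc
Gstm5: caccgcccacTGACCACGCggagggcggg
Mgst1: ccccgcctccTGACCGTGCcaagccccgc
Sod1: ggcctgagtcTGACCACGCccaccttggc
Nfe2l2: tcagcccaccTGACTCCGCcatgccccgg
The shown stretches lie at chr3:122245413-122245441 (minus strand) for Gclm, chr2:152105542-152105570 (minus) for Srxn1, chr10:82859104-82859132 (minus) for Txnrd1 and chr1:21240454-21240482 (plus) for Gsta3. Those of the others lie at chr3:107895802-107895830 (plus) for Gstm5, chr6:138140461-138140489 (minus) for Mgst1, chr16:90220696-90220724 (minus) for Sod1 and chr2:75704885-75704913 (minus) for Nfe2l2. The match begins within the transcribed part for Srxn1 and before the start site in each of the other genes shown, by 42 bases for Gstm5 up to 240 bases for Nfe2l2. The looser form TGANNNNGC, which includes every match of the first, was present in 14 of the 32 genes (43.8%) and in 45.0% of all genes with windows. Of motifs bound by zinc finger proteins of the WT1 and EGR kind, GCGTGGGNG was found in 0 of the 32 genes and in 2.18% of all genes. GCGGGGGCG was found in Gsto1 alone, and in 3.31% of all genes. These matches describe letters in the windows and are not binding sites shown by data.

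The arrays had median intensities of 151.6 to 167.8, a gap of 0.147 on the log2 scale that was removed by quantile normalization, and correlations of 0.960 to 0.972 between arrays across genes. In what follows, values of single arrays stand in the order of replicates 1, 2 and 3. The 3' to 5' ratio of the Actb control, a sign of RNA quality, was 1.67 to 1.74 in wild-type replicate 1 and heterozygous replicates 2 and 3, called low-ratio arrays here. The others, the high-ratio arrays, stood at 2.40 (wild-type replicate 2), 5.90 (wild-type replicate 3) and 2.49 (heterozygous replicate 1). The tissue label was borne out by its markers: Ovgp1, the oviductal glycoprotein, averaged 14.27 ± 0.01 in wild-type and 14.33 ± 0.02 in heterozygous arrays (log2 intensity, SD, n = 3 each), and Foxj1, of ciliated cells, 12.07 and 11.76. Wt1, the targeted transcription factor, had log2 intensities of 12.17, 12.06 and 11.67 in wild-type and 11.12, 11.27 and 11.79 in the heterozygous arrays. Heterozygous replicate 3 lay above wild-type replicate 3, so the genotypes overlapped, and the log2 change was -0.57 (95% interval -1.14 to -0.003, limma adjusted p = 0.771, exact permutation p = 0.2). The sources used here do not say whether the Wt1 probe set falls in the deleted stretch, so it may check nothing.

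None of the 36 measured redox genes differed between the genotypes past the threshold of 0.05 (limma with Benjamini-Hochberg adjustment over 18193 genes, smallest adjusted p = 0.809). At an unadjusted p under 0.05 there were 0 redox genes as well, where 6.44% of all genes lay under it, and 0.0165% of all genes passed the adjusted threshold. The genotypes did not overlap in 2 redox genes, Gpx8 and Gstm2, which is 5.56% of the 36, against 11.8% of all genes. Both were higher in heterozygous oviducts, a direction without overlap in 5% of all genes, and 0 were lower without overlap, against 6.77% of all genes. In the deposited scaling there were also 2, but these were Gpx8 and Gpx4, and the share of all genes in that scaling is not given here. Of the 36 genes 21 had a log2 change above 0 (58.3%), where the share over all genes was 45%, and the median log2 change was 0.03 against -0.03 over all genes. The median size of the log2 change, whatever its sign, was 0.11 over the redox genes, 0.16 over all genes, and 0.12 over the 11470 genes that were brighter than the median probe set in both genotypes. In whole oviducts, fewer cells of a type and less RNA per cell cannot be told apart.

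The intervals show which differences these arrays allow. The 95% interval of the log2 change lay within -0.58 and 0.58, about 1.5-fold either way, for 25 of the 36 genes. It lay within -1 and 1 for 34. The exceptions were Gpx2, with an interval of -1.11 to 0.39, and Hmox1, with -1.10 to 2.02. The log2 change was smaller than 0.2 in size for 29 genes and between 0.2 and 0.5 for the other 7, which were Gpx2, Gpx8, Gsta3, Gstm5, Sod3, Txnrd2 and Hmox1.

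**Figure D1:**
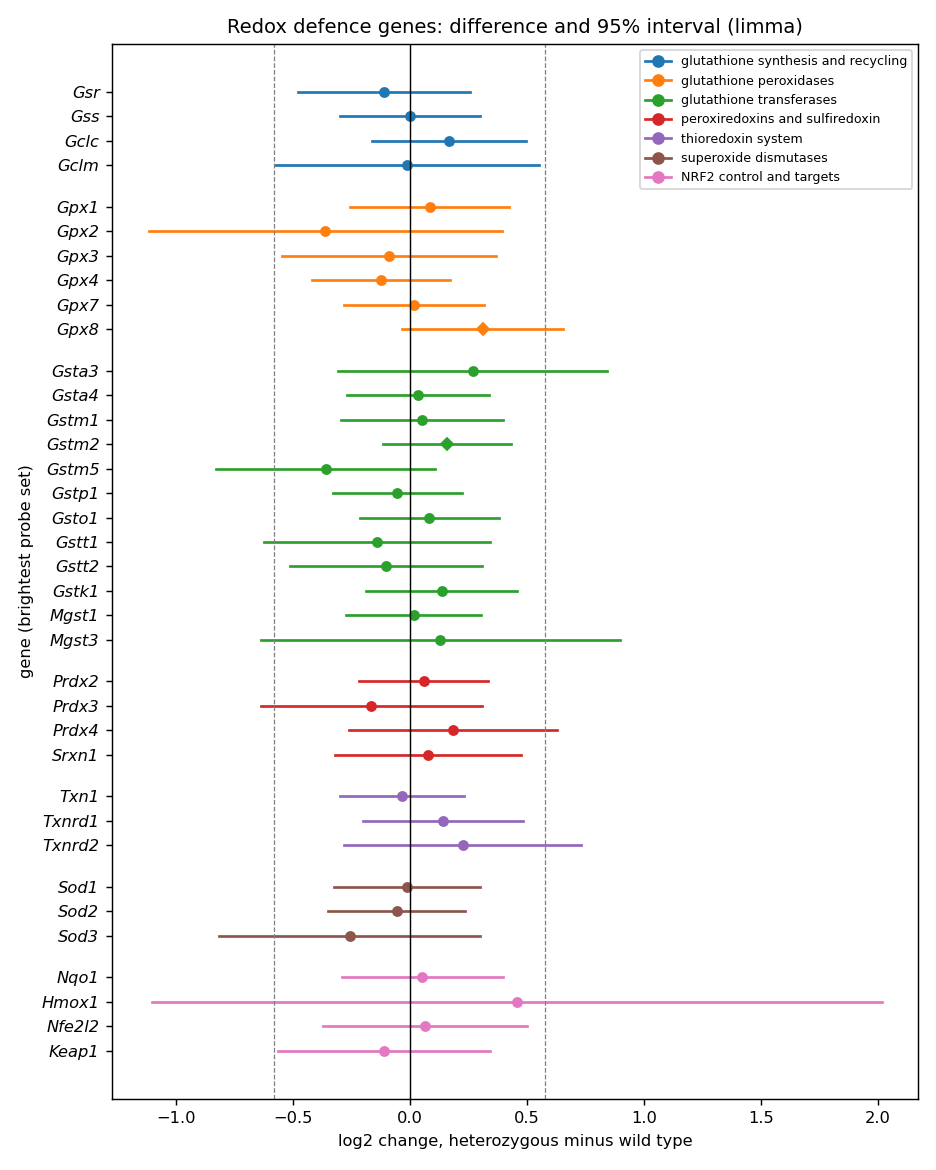
Log2 change of each of the 36 measured genes, heterozygous minus wild type, with its 95% interval from limma (lines), coloured by role; diamonds are genes whose genotypes do not overlap, and dashed lines mark -0.58 and 0.58. The intervals of all 36 genes include 0, and those of Gpx2 and Hmox1 reach past -1 or 1.

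Among the genes of glutathione synthesis and recycling, 2 were higher and 2 lower, all brighter in both genotypes than the array median, a log2 intensity of 7.31 over all probe sets. Gclc, the rate-limiting ligase subunit, had the smallest p of the 4. Its log2 intensity was 10.90, 10.75 and 10.90 in the wild-type arrays and 10.84, 11.06 and 11.16 in the heterozygous arrays. Heterozygous replicate 1 thus lay below 2 of the wild-type arrays, and the groups overlapped. The log2 change of Gclc was 0.17 (standard error 0.13, limma adjusted p = 0.896). Its other probe set gave 10.49, 10.34 and 10.18 in wild-type and 10.65, 10.85 and 10.74 in heterozygous arrays, without overlap. There the log2 change was 0.41 (limma, Benjamini-Hochberg adjusted p = 0.933 over all probe sets), so the probe sets differ in how far they separate the genotypes. The modifier subunit Gclm stood at -0.01 (interval -0.58 to 0.55) at its brightest probe set and at 0.42, with overlap, at the other. Gss, which adds glycine, stood at 0.00 (interval -0.30 to 0.30), and Gsr, the NADPH-dependent reductase, at -0.11.

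Of the 6 glutathione peroxidases 3 were higher and 3 lower. Gpx8, a membrane protein of the endoplasmic reticulum, had log2 intensities of 10.79, 10.72 and 10.45 in the wild-type arrays. Those of the heterozygous arrays were 10.98, 11.04 and 10.87. Every heterozygous array was above every wild-type array, the lowest wild-type value being that of replicate 3, the array with the highest 3' to 5' ratio. The means were 10.65 ± 0.18 and 10.97 ± 0.09 (SD, n = 3 each), 1.24-fold higher in heterozygous oviducts, a log2 change of 0.31 (standard error 0.14). Gpx8 did not pass (limma p = 0.0688, adjusted p = 0.809, exact permutation p = 0.1, the smallest that 3 arrays against 3 allow). Its log2 change was 0.21 without wild-type replicate 3, and 0.17 among the low-ratio and 0.40 among the high-ratio arrays.

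The other endoplasmic reticulum peroxidase, Gpx7, stood at 0.02 (interval -0.28 to 0.32). Gpx1, the general cytosolic selenoenzyme, stood at 0.09 (interval -0.25 to 0.43) and Gpx3, the secreted form of extracellular fluids, at -0.09 (interval -0.55 to 0.37). Gpx4, which reduces lipid hydroperoxides in membranes, stood at -0.12 (interval -0.42 to 0.17). Its wild-type arrays lay close together, at 11.65, 11.66 and 11.66, and the heterozygous ones at 11.55, 11.39 and 11.66, the last among the wild-type values. In the deposited intensities, without quantile normalization, Gpx4 did separate the genotypes, with 3195 to 3303 in wild-type and 2668 to 3153 in heterozygous arrays. Gpx2, best known from gut epithelium, was more variable, with 8.10, 8.51 and 8.90 in wild-type and 8.57, 8.21 and 7.65 in heterozygous arrays, and its log2 change of -0.36 did not pass (limma adjusted p = 0.899). The lowest of its 6 values was a heterozygous array and the highest a wild-type one, with overlap between.

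The 12 glutathione transferases split into 8 higher and 4 lower, with a median log2 change of 0.04. Gstm2, of the mu class, had log2 intensities of 13.53, 13.65 and 13.60 in the wild-type arrays and 13.75, 13.83 and 13.70 in the heterozygous arrays. All heterozygous arrays thus lay above all wild-type arrays, by a narrow margin. The log2 change was 0.16 (standard error 0.11, 1.12-fold, limma adjusted p = 0.888), and the interval ran from -0.11 to 0.43. This separation rests on the quantile normalization. In the deposited intensities Gstm2 had 11091, 13323 and 13906 in wild-type and 13916, 14269 and 12393 in the heterozygous arrays, so the genotypes overlapped and the log2 change was 0.09.

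Gstm5, also of the mu class, gave the smallest p on the lower side. Its log2 intensities were 11.58, 12.07 and 12.03 in wild-type and 11.59, 11.70 and 11.32 in the heterozygous arrays. Wild-type replicate 1 sat among the heterozygous arrays, and the other wild-type arrays were above all of them. The log2 change was -0.36 (standard error 0.19, limma adjusted p = 0.844). It was -0.07 among the low-ratio and -0.47 among the high-ratio arrays, and -0.52 without wild-type replicate 1. The mu class genes Gstm1, Gstm2 and Gstm5 thus had log2 changes of 0.05, 0.16 and -0.36, and related sequences of this class may share signal on an array.

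For the remaining transferases the log2 change ranged from -0.14 for Gstt1, of the theta class, to 0.27 for Gsta3, of the alpha class. Gsta3 had 8.22, 8.68 and 7.81 in wild-type and 8.47, 8.62 and 8.43 in heterozygous arrays at its brightest probe set, with overlap. Its other probe set went the opposite way, with 7.88, 8.25 and 7.95 in wild-type and 7.63, 7.65 and 7.62 in heterozygous arrays, a log2 change of -0.39 without overlap (limma adjusted p = 0.933 over probe sets). Gsta4, which conjugates the lipid peroxidation product hydroxynonenal, stood at 0.04, Gstp1 at -0.05 and Gsto1, of the omega class, at 0.08. The second Gsto1 probe set had 13.02, 13.26 and 13.17 in wild-type and 13.43, 13.44 and 13.30 in heterozygous arrays, a log2 change of 0.24 without overlap that did not pass (limma adjusted p = 0.933 over probe sets). Gstt2 stood at -0.10, the mitochondrial and peroxisomal Gstk1 at 0.14, and the membrane-bound Mgst1 and Mgst3 at 0.02 and 0.13. The interval was narrow for Mgst1 (-0.27 to 0.31) and wide for Mgst3 (-0.64 to 0.90), whose values ran from 9.03 to 10.07 in wild-type arrays alone.

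Of the peroxiredoxins, 3 were measured besides Srxn1, the sulfiredoxin that repairs them after overoxidation. Prdx4, the peroxiredoxin of the endoplasmic reticulum, had 11.28, 11.09 and 10.79 in wild-type and 11.43, 11.26 and 11.04 in the heterozygous arrays. The groups overlapped, since wild-type replicate 1 exceeded 2 of the heterozygous arrays. The log2 change of Prdx4 was 0.19 (standard error 0.18, limma adjusted p = 0.911), but -0.13 among the low-ratio and 0.49 among the high-ratio arrays. Leaving out wild-type replicate 3 gave 0.06, and leaving out wild-type replicate 1 gave 0.30. The other Prdx4 probe sets gave 0.09, -0.03 and 0.12. Cytosolic Prdx2 stood at 0.06 (interval -0.22 to 0.34), mitochondrial Prdx3 at -0.16 (interval -0.64 to 0.31) and Srxn1 at 0.08 (interval -0.32 to 0.48). Prdx2 is abundant in red blood cells, whose markers Hba-a1, Alas2 and Slc4a1 had means of 5.28 to 6.37 on the log2 scale, below the array median in both genotypes.

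In the thioredoxin system, Txn1, the small protein that passes electrons to peroxiredoxins, varied least of the measured redox genes within genotypes after quantile normalization. Its log2 intensity was 13.07, 13.10 and 13.02 in wild-type and 13.07, 12.96 and 13.06 in heterozygous arrays, a log2 change of -0.03 (interval -0.30 to 0.23). The reductase that serves it in the cytosol, Txnrd1, stood at 0.14 (interval -0.20 to 0.48). The mitochondrial reductase Txnrd2, near the array median, had 7.50, 7.08 and 6.79 in wild-type and 7.24, 7.47 and 7.34 in the heterozygous arrays. Its highest and its lowest value were both from wild-type arrays, and the log2 change of 0.23 did not pass (standard error 0.21, limma adjusted p = 0.904). Without wild-type replicate 1 it was 0.42, without wild-type replicate 3 it was 0.06, and the other probe sets gave 0.06, 0.26 and -0.02.

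The brightest probe sets of all 3 superoxide dismutases were lower in heterozygous oviducts, by amounts within the spread. Cytosolic Sod1 had a log2 change of -0.01 (interval -0.32 to 0.30) and mitochondrial Sod2 of -0.06 (interval -0.35 to 0.24). Sod3, the secreted enzyme of the extracellular matrix, had 8.36, 8.94 and 8.47 in wild-type and 8.12, 8.67 and 8.20 in the heterozygous arrays. The groups overlapped, with replicate 2 the highest array in each genotype. Its log2 change was -0.26 (standard error 0.23, limma adjusted p = 0.903), with 0.08 among the low-ratio and -0.58 among the high-ratio arrays. Its other probe set gave 0.25, also with overlap.

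The Sod2 probe sets disagreed, and this gene is singled out after its values were seen. At the third brightest probe set the log2 intensity was 10.16, 9.89 and 9.99 in wild-type and 9.25, 9.15 and 9.45 in the heterozygous arrays. Every heterozygous array was below every wild-type array, by a log2 change of -0.73 (standard error 0.16). This probe set had the smallest p of the 71, and it did not pass over all probe sets (limma adjusted p = 0.680). The pair of brighter Sod2 probe sets stood at -0.06 and -0.004 and the dimmest at -0.40, all with overlap. The sources used here do not say which Sod2 transcript each probe set reads.

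NRF2 and its controls showed no separation of the genotypes. Nfe2l2 had a log2 change of 0.06 (interval -0.37 to 0.50), Keap1 of -0.11 (interval -0.56 to 0.34) and Nqo1, a quinone reductase and classical NRF2 target, of 0.05 (interval -0.29 to 0.40). Hmox1, which breaks down haem and is induced by many stresses, was below the array median in both genotypes. Its log2 intensity was 6.84, 4.56 and 6.34 in wild-type and 5.84, 6.31 and 6.96 in the heterozygous arrays. Wild-type replicate 2 was far below the other arrays, and the log2 change of 0.46 (standard error 0.64, limma adjusted p = 0.938) became -0.22 without it. The 8 measured genes with TGACNNNGC in their promoter windows, shown above, had 5 higher and 3 lower values, with a median of 0.04. The 22 others with windows had 13 higher and 9 lower, with a median of 0.03. Sites outside the 300 bases of a window were not searched, so this split does not sort the genes by NRF2 control.

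**Figure D2:**
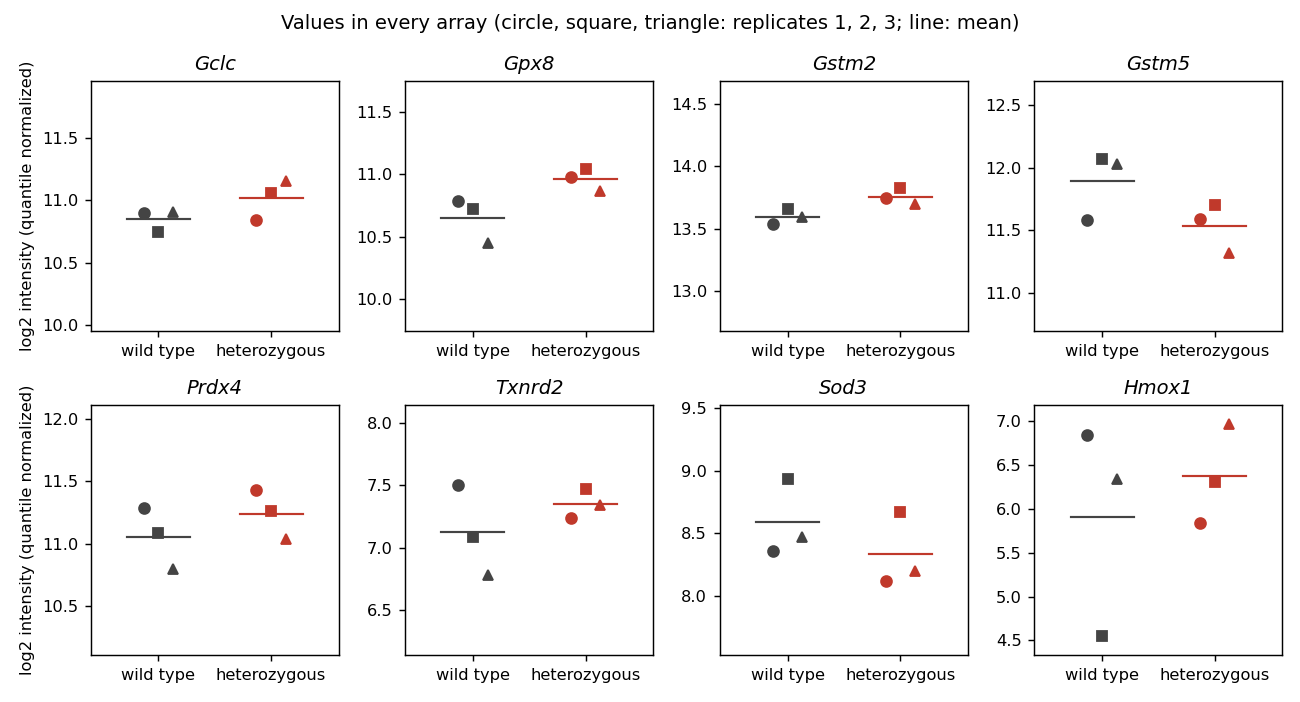
Quantile normalized log2 intensity of 8 redox genes in the 6 arrays, by genotype; symbols mark replicates 1, 2 and 3 and lines the group means, and each panel spans at least 2 log2 units. Gpx8 and Gstm2 separate the genotypes without overlap, Gstm5 does so except for wild-type replicate 1, and Hmox1 spreads most, down to 4.56 in wild-type replicate 2.

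Several probe sets were present for 21 of the 36 genes, and for 12 of these the probe sets of 1 gene gave log2 changes of both signs. Of the 71 probe sets, 6 did not overlap between the genotypes, 4 higher and 2 lower, which is 8.45% against 10.5% of all 45037 probe sets. They belong to 6 genes: Gpx8, Gstm2, Gclc, Gsto1, Gsta3 and Sod2. At an unadjusted limma p under 0.05 there were 3, or 4.23%, against 5.18% of all probe sets, and 0 passed after adjustment, against 0.00666% of all. In the genes Gclc, Gsto1, Gsta3 and Sod2 it was a dimmer probe set that separated the genotypes while the brightest overlapped. The dimmer probe sets of Txnrd1 gave log2 changes of 0.48 and 0.55 and that of Gsr 0.51, all with overlap.

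**Figure D3:**
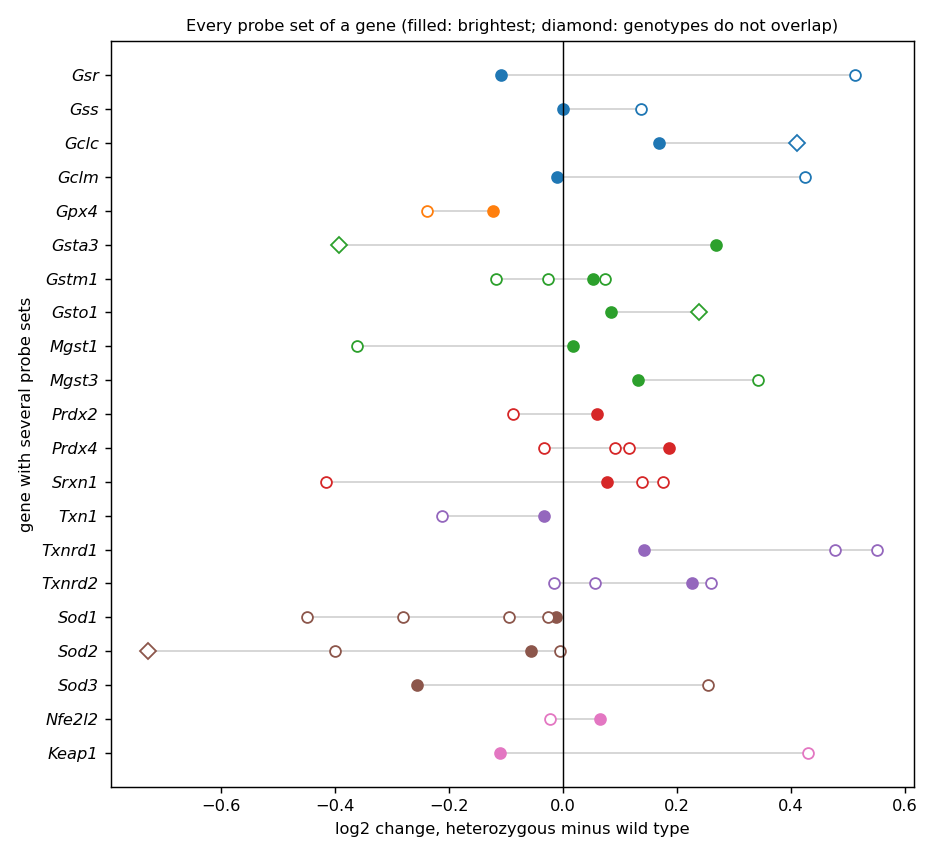
Log2 change, heterozygous minus wild type, at every probe set of the 21 genes with several; filled symbols are the brightest probe set, diamonds those without overlap between genotypes, colours the roles. The lowest point is the Sod2 probe set at -0.73, whose brighter neighbours stand at -0.06 and -0.004.

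The redox genes varied little between arrays of 1 genotype. The residual SD within genotypes had a median of 0.144 on the log2 scale over the 36 genes, 0.243 over all genes and 0.185 over the 11470 genes above the array median in both genotypes. It was below the median of all genes for 28 of the 36. These values are after quantile normalization. The lowest was that of Txn1 (0.0511), at the 1.13th percentile of all genes, followed by Gstm2 (0.0632) and Gstp1 (0.0668). This order rests on the normalization. In the deposited intensities Mgst1 varied less in proportion than Txn1. Mgst1 had 11198 to 12120 in wild-type and 11107 to 11460 in heterozygous arrays, and Txn1 had 8029 to 9265 and 7963 to 8763. The highest residual SDs were those of Hmox1 (0.937, the 92.4th percentile), Mgst3 (0.441) and Gpx2 (0.432). Level moves with this measure: 34 of the 36 genes were above the array median in both genotypes, Txnrd2 in 1 genotype and Hmox1 in neither.

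**Figure D4:**
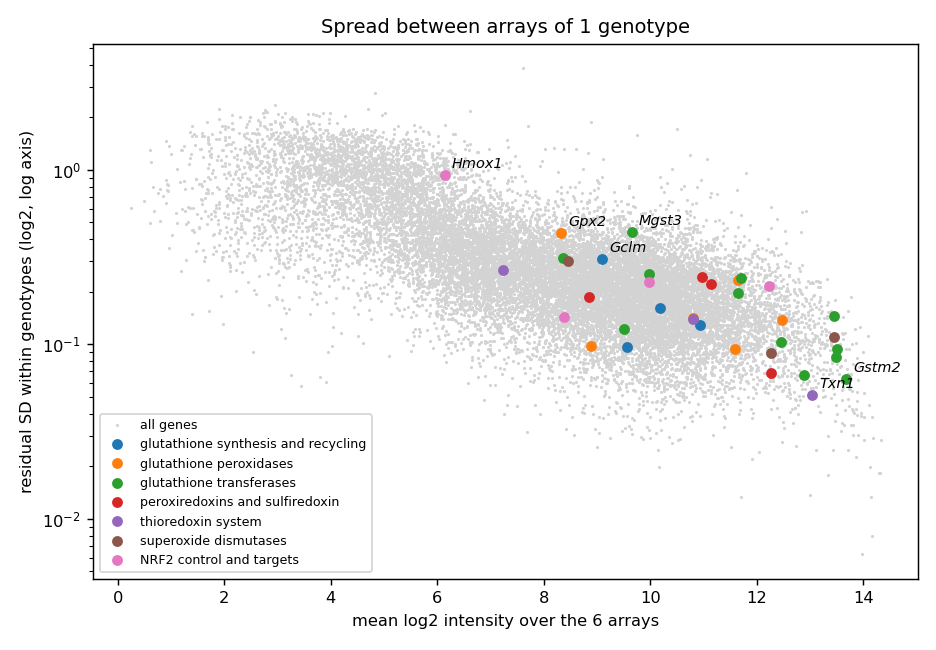
Residual SD within genotypes (log axis) against the mean log2 intensity over the 6 arrays, both after quantile normalization. All 18193 genes are grey and the 36 redox genes coloured by role. Spread falls with level over all genes; Txn1 (0.0511) and Gstm2 (0.0632) lie at the lower end and Hmox1 (0.937) at the upper end.

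The arrays did not order the redox genes by genotype. The mean deviation of the 36 genes from their own means was -0.06, 0.01 and 0.01 in the wild-type arrays and 0.03, 0.04 and -0.04 in the heterozygous arrays. The groups overlapped on this measure. Over all 18193 genes the mean deviation was -0.054, 0.022 and 0.072 in the wild-type and 0.015, -0.034 and -0.020 in the heterozygous arrays. Wild-type replicate 1 was thus the lowest array over all genes too, at -0.054 against -0.056 over the redox genes. Wild-type replicate 1 held the lowest value in 13 of the 36 genes and heterozygous replicate 1 in 1. The highest values were spread more evenly, with 3 to 9 genes an array.

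The wider pathway was read from 88 further genes, of which 83 were measured, 38 higher and 45 lower, with a median log2 change of -0.02. In this list 0 passed the adjusted threshold with limma. At an unadjusted p under 0.05 there were 3 higher and 1 lower, against 2.67% and 3.77% of all genes. The genotypes did not overlap in 10 of the 83 (12.0%), 4 higher and 6 lower, against 11.8% of all genes. Among 21 other thiol and peroxide enzymes, 7 were higher and 14 lower. Lower without overlap were Txnip, the thioredoxin-interacting protein (-0.15), and Ccs, the copper chaperone of Sod1 (-0.12). Msrb3, a methionine sulfoxide reductase, had a log2 change of 0.38 without overlap (limma adjusted p = 0.731), and Cat, catalase, stood at 0.02. Of 11 other glutathione transferases 5 were higher and 6 lower, with Mgst2, a microsomal enzyme that also makes leukotrienes, at 0.75 (limma adjusted p = 0.610). Its values were 6.95, 7.22 and 7.53 in wild-type and 8.28, 7.88 and 7.78 in heterozygous arrays, without overlap.

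Glutathione and cysteine turnover was measured by 17 genes, 8 higher and 9 lower. Chac1, which degrades glutathione and is induced by stress, had a log2 change of -0.69 without overlap (limma adjusted p = 0.532), with -0.38 among the low-ratio and -0.89 among the high-ratio arrays. The 8 genes of NADPH supply stayed between -0.07 and 0.04, the former being Tkt, transketolase. In the list of haem, iron and quinone genes 2 of 6 were higher, and Blvrb, biliverdin reductase B, stood at -0.42 with overlap and Ephx1, an epoxide hydrolase, at -0.17 without. In the list of selenoprotein synthesis and transport 5 of 11 were higher, and Sephs2, which makes the selenium donor, stood at -0.36 with overlap, but without overlap in the deposited scaling. In this list Secisbp2 (-0.23) and Selenop (-0.08) were lower and Pstk (0.12) higher without overlap, of which Secisbp2 alone did so in the deposited scaling too. Of 9 NRF2 regulators 6 were higher. Rbx1, a ring protein of the ubiquitin ligase that acts with Keap1, had a log2 change of 1.80 without overlap, between means of 3.74 and 5.54, far below the array median (limma adjusted p = 0.226). When 16 was added to each intensity first, the change of Rbx1 was 1.09.

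Summed markers of some other cell types also stood apart between the genotypes after quantile normalization, as did Gpx8 and Gstm2. All 7 smooth muscle markers were higher in heterozygous oviducts, 5 of them without overlap, and their summed intensity was 29583 to 32381 in wild-type and 33686 to 45708 in heterozygous arrays. In the deposited scaling all 7 were again higher, but 2 of them without overlap (Actg2 and Cnn1), and the sums overlapped, at 28001 to 35368 and 32023 to 45081. The 7 stromal markers were also all higher, with sums of 38709 to 41292 and 41543 to 48524, which overlapped in the deposited scaling, at 38739 to 43696 and 39402 to 47914. The 5 endothelial markers were all higher, with sums of 1885 to 2305 and 2422 to 2968. The 4 measured adipocyte markers were all higher, with sums of 215.0 to 306.9 and 634.4 to 1298. Of these, Cidec overlapped and was dim, with deposited intensities of 1.2 to 20.7 in wild-type and 7.9 to 29.6 in heterozygous arrays. The sums of these last lists stood apart in the deposited scaling too, at 1827 to 2324 and 2458 to 3002 for endothelium and 215.5 to 298.7 and 614.2 to 1320 for adipocytes. In the secretory epithelium list 5 of 7 were higher, or 3 of 7 in the deposited scaling, and the sums overlapped, at 55460 to 60153 and 56936 to 59740. Ciliated markers were higher in 1 of 7, with sums of 27766 to 29403 and 23293 to 28004. Of these Foxj1 was lower without overlap in both scalings, with a log2 change of -0.31 (limma adjusted p = 0.782). Macrophage markers were higher in 5 of 6, with 6968 to 8736 and 7285 to 9898. Mesothelial markers were higher in 3 of 4 (2116 to 3766 and 2896 to 3437). Uterine gland markers were higher in 3 of 5, and their sums stood apart, at 11965 to 13515 and 14624 to 16066. They did so in the deposited scaling too, at 11260 to 13760 and 14097 to 16210. Most of each sum came from 1 gene, Ltf. Its deposited intensities were 10080 to 12221 in wild-type and 11737 to 13948 in heterozygous arrays, which overlapped. After quantile normalization Ltf was higher without overlap, with a log2 change of 0.21 (limma adjusted p = 0.858). In this list Cxcl15 had a log2 change of 2.50 without overlap in either scaling (limma adjusted p = 0.0620). Foxa2 (-0.06) and Spink1 (-1.22) were lower, with overlap. Ovarian markers were higher in 1 of 5 (767.6 to 1046 and 719.3 to 809.6), oocyte and embryo markers in 1 of 6 (385.3 to 536.5 and 362.7 to 429.1) and erythroid markers in 0 of 3 (111.4 to 327.4 and 125.2 to 288.7). None of these markers passed the adjusted threshold with limma, and none was at 0 in a group mean. Prss28, Cidec and Nanog had group means of 2.23 to 3.97 on the log2 scale, far below the array median. The part of the marker lists in the Gpx8 and Gstm2 values was not tested.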

How the data were processed

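Biotin-labelled cRNA was hybridised to 1-colour arrays, per the labels' protocols, and the authors deposited a linear intensity for each of 45101 probe sets. The summarising program was not given in the sources used here. The mean intensity after trimming 2% at each end was 500.0 in every array, so the deposited values had been scaled. After removal of 64 control probe sets, intensities under 1 were set to 1, log2 transformed and quantile normalized, since array medians differed by 0.147. Genes were named from the platform annotation (34945 probe sets with 1 symbol, 932 with several, 9160 unnamed here). Heterozygous minus wild type was fitted by limma 3.58.1 (R 4.3.3). Its two-sided p-values were adjusted by Benjamini-Hochberg over all genes or all probe sets, with a threshold of 0.05. Exact permutation tests had 20 assignments. The number of arrays limits the precision. Levels of different probe sets are not comparable.

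The members, lists, tests and alternatives were chosen with earlier results of these data known. Every member is given. Members at an unadjusted p under 0.05, members without overlap and the member of smallest p in each role have their values in every array. Pathway genes are named where p was under 0.05 without overlap, and otherwise the 1 of smallest p in a list; other genes named were chosen after their values were seen. Alternatives were the deposited scaling, a minimum mean log2 of 6, array weights, a trended and robust eBayes, a block for the replicate number, each array left out, other probe set rules, 16 added before log2, and the 3' to 5' ratio of Actb. The script was tested on simulated data of 18193 genes. It recovered 27% of log2 shifts of 1 and 80% of those of 2, with 8 false calls.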

Additional observations from a re-analysis of the deposited data

How the results depend on the processing

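Of the 36 measured redox genes 0 passed the adjusted threshold of 0.05 in any refit with limma, and 15 kept their direction in all 16 refits on 5 or 6 arrays (0 to 3 had an unadjusted p under 0.05). With the deposited scaling the log2 change turned for Gstm1 at -0.0073 and Mgst1 at -0.050. With array weights it turned for Gss at -0.057, Gclm at 0.10, Gstm1 at -0.024, Gstt1 at 0.040 and Srxn1 at -0.094. When the probe sets of a gene were averaged it turned for Gsr at 0.20, Gclm at 0.21, Gsta3 at -0.063, Gstm1 at -0.0043, Mgst1 at -0.17, Prdx2 at -0.015, Keap1 at 0.16 and Srxn1 at -0.0056. With the Actb 3' to 5' ratio as covariate it turned for Gpx3 at 0.080, Gclm at 0.16, Mgst1 at -0.047, Nfe2l2 at -0.11 and Keap1 at 0.0098, and with the ratio class as a block for Gpx3 at 0.034, Mgst1 at -0.022, Nfe2l2 at -0.011 and Keap1 at 0.0040.

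Leaving out 1 array at a time gave ranges across 0 for Gclm (-0.15 to 0.20), Gpx3 (-0.24 to 0.021), Gpx7 (-0.044 to 0.088), Gsr (-0.20 to 0.018), Gss (-0.059 to 0.048), Gsta4 (-0.047 to 0.086), Gstm1 (-0.019 to 0.13), Gstt2 (-0.19 to 0.0076), Hmox1 (-0.22 to 0.92), Keap1 (-0.29 to 0.0076), Mgst1 (-0.030 to 0.059), Mgst3 (-0.15 to 0.37), Nfe2l2 (-0.090 to 0.18), Nqo1 (-0.021 to 0.14), Sod1 (-0.081 to 0.033), Sod2 (-0.093 to 0.00072), Srxn1 (-0.016 to 0.19) and Txn1 (-0.053 to 0.0024). The median over the redox genes ran from -0.00056, without wild-type replicate 1, to 0.035. Redox genes at an unadjusted p under 0.05 ran from 0 to 2, and those without overlap from 4 to 7, since fewer arrays were compared.

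Over all genes, 3 passed with limma as reported, 1 after dim probe sets were removed, 1 with a trended and robust eBayes, 7 with array weights, and 0 without probe sets of shared sequence, with the 3' to 5' covariate or class, and with each array left out (843 to 1907 genes then had an unadjusted p under 0.05). Redox genes at an unadjusted limma p under 0.05 were 3 of 36 with the trended and robust eBayes (Gpx8, Gstm2 and Gstm5). With array weights they were 2 (Gpx8 and Gstm5). Of all genes, 6.89% lay under it in the first of these refits and 14% in the second. There was 1 redox gene with averaged probe sets, against 5.93% of all genes. Without probe sets of shared sequence there was also 1, against 6.31% of all genes. Redox genes without overlap were 5 with averaged probe sets and 4 without probe sets of shared sequence. The share of all genes without overlap in these refits is not given here, so the counts are not read further. The median over the redox genes was 0.069 within the low-ratio and 0.017 within the high-ratio arrays. The comparison of marker and pathway lists with the deposited scaling was chosen after seeing the data. The causes of these moves were not tested. Wt1 has no value without probe sets of shared sequence.

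Arrays of the same replicate number did not deviate together (correlations of -0.10, -0.03 and -0.08), so the numbers were not taken as a pairing. With the replicate block 0 genes passed with limma, 976 had an unadjusted p under 0.05, and the median over the redox genes was 0.027.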

Other observations

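Prdx1, a cytosolic peroxiredoxin, is read on this array by 5 probe sets that also name Gm21399, so their values cannot be given to 1 gene. Their mean log2 intensities were 13.33 ± 0.05 in wild-type and 13.32 ± 0.04 in heterozygous oviducts, 12.80 ± 0.18 and 12.71 ± 0.13, 13.35 ± 0.07 and 13.36 ± 0.05, 13.79 ± 0.07 and 13.76 ± 0.11, and 11.04 ± 0.51 and 10.74 ± 0.13 (SD, n = 3 each). The genotypes overlapped at all 5. The promoter window of Prdx1 holds the antioxidant response element core at chr4:116685456-116685484 (GRCm38.p6, minus strand), shown as in the report with the match in capitals.
Prdx1: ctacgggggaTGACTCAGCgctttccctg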
